A study of Mus musculus with 6 samples.

Results

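Transcripts of 10 Notch pathway genes were compared between *Cxcl12*DsRed- and *Cxcl12*DsRed+ cortical thymic epithelial cells (cTEC), called DsRed- and DsRed+ cTEC from here on. The genes encode 4 ligands (*Dll1*, *Dll4*, *Jag1* and *Jag2*), 3 receptors (*Notch1*, *Notch2* and *Notch3*) and 3 members of the HES and HEY families of transcriptional regulators (*Hes1*, *Hes6* and *Hey1*). They were taken by gene symbol, without regard to their counts, through the Ensembl gene IDs of the count table, in which they are 10 of 39179 genes. All 10 also passed the filter on low counts, and are among the 15576 genes tested. The libraries came from untreated mice on a C57BL/6 background, 10 weeks of age, that carry DsRed as a knockin reporter of *Cxcl12* (genotype Cxcl12::DsRed). Every library is of CD45-EpCAM1+UEA1-Ly51+ cells sorted from these reporter mice, and the subsets were separated by a gate on DsRed. There were 3 libraries of DsRed- cTEC and 3 of DsRed+ cTEC, and each of experiments A, B and C gave 1 library of each subset. How many mice stand behind a library is not given in the sources used here, so p-values rest on the variation among 6 libraries, which may be technical in part.

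Notch receptors are single-pass membrane proteins that are activated by Delta-like (DLL) and Jagged (JAG) ligands on a neighbouring cell. Ligand binding leads to cleavage of the receptor by an ADAM protease and then by gamma-secretase, and the released intracellular domain enters the nucleus and joins RBPJ and a Mastermind protein to switch on target genes, among them repressors of the HES and HEY families. In the mouse thymus DLL4 on cTEC is the ligand that signals through NOTCH1 on incoming progenitors and commits them to the T cell lineage. *Dll4* is a direct target of FOXN1, the transcription factor that thymic epithelium needs to develop and to keep its function.

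The DsRed entry of the count table stood at 21.5, 17.6 and 27.8 CPM in the DsRed- libraries of A, B and C, against 859.9, 1322 and 2059 CPM in the DsRed+ libraries. CPM, a count relative to library size, was taken here after TMM scaling of the library sizes, and library sizes ranged from 34574900 to 51042679 counts in genes. The summed level of 12 cTEC markers was 6288 to 9571 CPM in DsRed- cTEC, against 15010 to 26830 CPM in DsRed+ cTEC, and no marker of the list was at 0 throughout a subset. The libraries also held transcripts that mark other cells. The sum of 18 endothelial markers was 71.1 to 145 CPM in DsRed- cTEC, against 953.8 to 7181 CPM in DsRed+ cTEC. Tuft cell markers (10 genes) summed to 511 to 2862 CPM in DsRed- cTEC, against 35.2 to 38.0 CPM in DsRed+ cTEC, and fibroblast markers (8 genes) to 3672 to 4905 CPM in DsRed- cTEC, against 1094 to 1838 CPM in DsRed+ cTEC.

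RefSeq start sites on GRCm38.p6 gave upstream sequence for 8 of the 10 genes, in 10 windows of 250 bases that end at the start site, and had no entry for *Hes1* or *Hey1*. The windows are shown for *Dll4* and *Hes6*, which were lower in DsRed- cTEC in every experiment, and for *Notch1*, whose window holds the letters that FOXN1 is known to recognise. In the *Dll4* window, capitals mark the 31 bases that lie in an exon of *Gm14207*, a transcript of the opposite strand. In the *Notch1* window they mark GACGC, which begins 168 bases before the start site, and the 2 bases nearest to the start are left off because they are exonic. No letters are marked in the *Hes6* window. The windows lie at chr2:119325534-119325783 on the plus strand for *Dll4*, at chr2:26503825-26504072 on the minus strand for *Notch1* and at chr1:91414039-91414288 on the minus strand for *Hes6*.
Dll4: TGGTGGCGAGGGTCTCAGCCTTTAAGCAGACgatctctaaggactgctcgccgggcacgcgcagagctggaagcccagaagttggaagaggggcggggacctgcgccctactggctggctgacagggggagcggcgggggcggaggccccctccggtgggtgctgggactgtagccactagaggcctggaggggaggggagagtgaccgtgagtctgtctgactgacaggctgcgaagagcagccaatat
Notch1: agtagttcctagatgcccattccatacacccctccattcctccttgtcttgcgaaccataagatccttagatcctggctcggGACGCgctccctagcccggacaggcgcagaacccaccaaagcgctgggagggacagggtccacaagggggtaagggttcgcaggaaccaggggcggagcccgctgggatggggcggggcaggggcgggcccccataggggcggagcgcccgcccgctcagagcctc
Hes6: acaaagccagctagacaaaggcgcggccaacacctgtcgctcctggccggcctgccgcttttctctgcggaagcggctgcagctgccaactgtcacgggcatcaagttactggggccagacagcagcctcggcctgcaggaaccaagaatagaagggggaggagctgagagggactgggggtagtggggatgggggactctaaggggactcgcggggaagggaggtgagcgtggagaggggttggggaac

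The 10 windows were searched on both strands for 3 short motifs, none of which contains another. GACGC (FOXN1; GCGTC on the other strand) was found in 3 of the 10 windows, those of *Dll1*, *Jag1* and *Notch1*, and in 22.6% of 32851 windows of the same length over all genes. TGGGAA (RBPJ; TTCCCA on the other strand) was in 0 of the 10 windows, and in 21.6% of all windows. CACGTG, an E-box that HES and HEY proteins bind, was likewise in 0 of the 10 windows, and in 6.02% of all windows. A match is a description of the letters in a window and not a binding site. Some windows hold exonic bases of their own gene: 250 in *Jag2*, 153 in the *Dll1* window with GACGC, 124 in *Jag1* and 11 in *Notch2*.

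Across the pathway, *Dll4* was the ligand that differed most between the subsets, at about 2 CPM in DsRed- cTEC and 73 CPM in DsRed+ cTEC. *Hey1* and *Hes6* were also lower in DsRed- cTEC in each experiment, while *Dll1*, *Jag1*, *Jag2*, *Notch1* and *Notch2* had intervals around no change. None of the 10 genes (0) passed an adjusted p of 0.05 by the quasi-likelihood test of edgeR (Benjamini-Hochberg adjustment), where 0.623% of all genes tested passed, and 3 (*Dll4*, *Hey1* and *Hes6*) had an unadjusted p under 0.05, as had 11.8% of all genes tested. By other tools the count was 2 with edgeR's likelihood ratio test (*Dll4* and *Hey1*; 5.65% of all genes), 2 with DESeq2 (6.94% of all genes), and 0 with limma voom (0.0257% of all genes). With experiment as a replicate block it was 0 in the quasi-likelihood test (0.469% of all genes) and 3 in the likelihood ratio test (6.81% of all genes). The DsRed- libraries all lay below the DsRed+ libraries for 2 of the 10 genes, *Dll4* and *Hey1*, and for 9.32% of all genes tested. No member (0) had all DsRed- libraries above, a pattern of 9.73% of all genes. *Dll4*, *Hes6* and *Hey1* were among the genes that the study displayed from these same libraries, so that the way they moved here cannot count as independent evidence. The fitted log2 fold change of DsRed- over DsRed+ cTEC was above 0 for 5 genes and below 0 for 5, with a median of −0.32, beside a median of 0.02 over all genes tested.

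**Figure D1:**
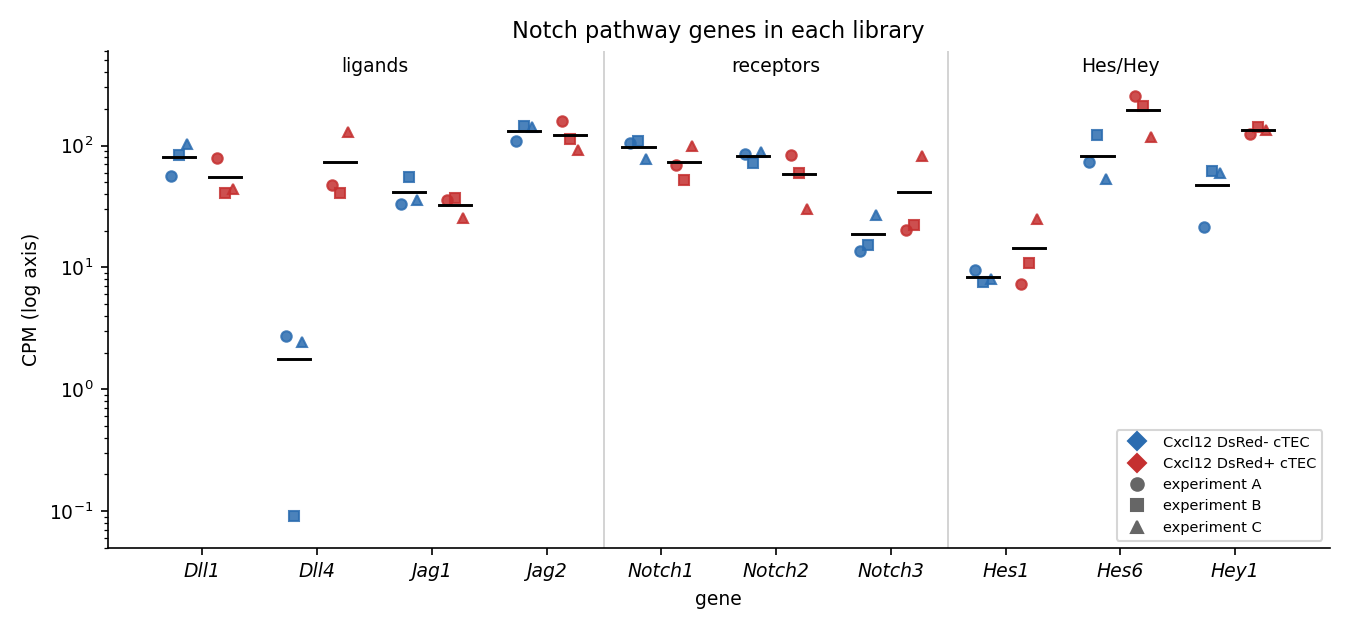
Level of each of the 10 genes in each library, in CPM on a log axis, with DsRed- cTEC (blue) left of DsRed+ cTEC (red), the experiments as symbols and the mean of each subset as a bar. The *Dll4* points lie between 0.0913 and 2.75 CPM in DsRed- cTEC and between 41.0 and 129.9 CPM in DsRed+ cTEC, and the subsets overlap in 8 of the 10 genes.

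Among the ligands, *Dll4* (ENSMUSG00000027314; chr2:119325784-119335962, plus strand) stood at 2.75, 0.0913 and 2.46 CPM in the DsRed- libraries of A, B and C, from 119, 3 and 100 counts, against 47.7, 41.0 and 129.9 CPM in the DsRed+ libraries, from 2523, 1966 and 5040 counts. Every DsRed+ library was far above every DsRed- library, and within each subset a single library stood apart, that of B at the bottom of DsRed- cTEC and that of C at the top of DsRed+ cTEC. The means were 1.77 ± 1.46 CPM in DsRed- cTEC and 72.9 ± 49.5 CPM in DsRed+ cTEC (SD, n = 3 each), which is 41.3-fold higher in DsRed+ cTEC. The log2 fold change was −5.36 (standard error 1.14, 95% interval −8.07 to −2.64), with an adjusted p of 0.0975 in edgeR's quasi-likelihood test. The call depended on the tool: the adjusted p was 0.000195 with edgeR's likelihood ratio test, 4.31e-07 with DESeq2, 0.321 with limma voom and 0.124 in edgeR's quasi-likelihood test with the replicate block. A two-sided exact permutation test of the log2 CPM gave p = 0.1, the smallest that 3 libraries against 3 allow, and p = 0.25 within the 3 experiments, the smallest that 3 pairs allow. In bulk RNA, fewer cells that express a gene and less RNA per cell cannot be told apart.

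The *Dll4* difference held within each experiment. The level in DsRed+ cTEC was 17.4 times that in DsRed- cTEC in A (95% counting interval 14.4 to 21.03), 449 times in B (153.5 to 2180, from 3 counts in DsRed- cTEC) and 52.8 times in C (43.3 to 65.0). Without the DsRed+ library of C, the highest of all, the log2 fold change was −4.67, and it ranged from −6.05 to −4.67 over the libraries and experiments left out in turn. The antisense gene *Gm14207* (chr2:119321187-119326194) shares 214 exonic bases with *Dll4*, and had 4, 254 and 6 counts in the DsRed- libraries, against 396, 918 and 700 in the DsRed+ libraries. Its own level differed least in B, where that of *Dll4* differed most. Whether reads were counted by strand is not given in the sources used here, so reads over the shared bases cannot be told apart.

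For the other 3 ligands the subsets overlapped. *Dll1* (ENSMUSG00000014773; chr17:15367354-15376872, minus strand), the second Delta-like ligand measured, stood at 56.2, 83.8 and 103 CPM in the DsRed- libraries, against 79.3, 40.9 and 44.0 CPM in the DsRed+ libraries. It was lower in DsRed- cTEC in A and about 2-fold higher in B and C, so the subsets overlapped, and the log2 fold change was 0.56 (standard error 0.35, interval −0.28 to 1.402, edgeR adjusted p = 0.643). *Jag1* (ENSMUSG00000027276; chr2:137081456-137116644, minus strand), a Jagged ligand that mouse vessels and epithelia also use, stood at 33.2, 55.3 and 35.6 CPM in DsRed- cTEC, against 35.6, 37.4 and 25.2 CPM in DsRed+ cTEC. The subsets overlapped and the interval reached from −0.40 to 1.08 around a log2 fold change of 0.34 (edgeR adjusted p = 0.796). *Jag2* (ENSMUSG00000002799; chr12:112907819-112929776, minus strand), the other Jagged ligand, stood at 109.9, 146 and 142.5 CPM in DsRed- cTEC, against 159, 113 and 92.1 CPM in DsRed+ cTEC. Its subsets overlapped as well, with a log2 fold change of 0.13 (interval −0.48 to 0.74, edgeR adjusted p = 0.933) that turned to −0.07 without the DsRed+ library of C. The interval for *Jag2* excludes a 2-fold change in either direction, and those for *Dll1* and *Jag1* do not exclude a 2-fold higher level in DsRed- cTEC. *Dll1* shares 867 exonic bases with *A930024N18Rik*, which had 433, 16 and 42 counts in the DsRed- libraries, against 66, 76 and 7 in the DsRed+ libraries.

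**Figure D2:**
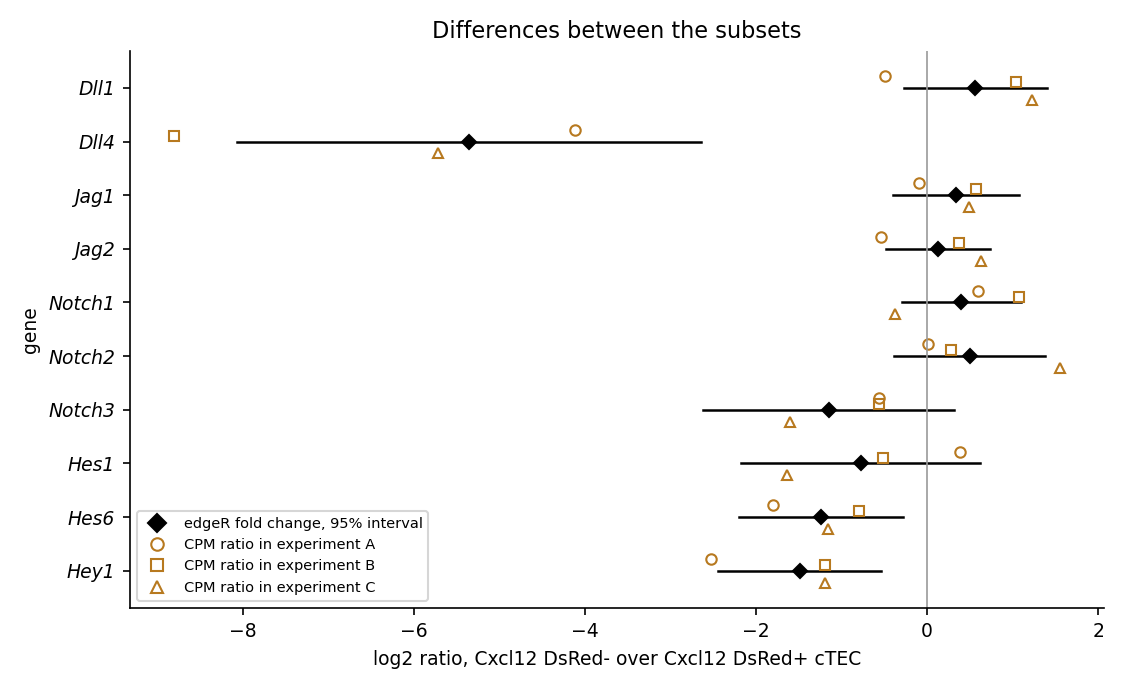
Log2 ratio of DsRed- over DsRed+ cTEC for each of the 10 genes, as the edgeR fold change with its 95% interval (black) and as the CPM ratio within experiments A, B and C (open symbols). The intervals of *Dll4* (−8.07 to −2.64), *Hes6* (−2.20 to −0.28) and *Hey1* (−2.44 to −0.54) lie below 0, and the other 7 include 0.

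Set against exonic length, the make-up of the ligand transcripts differed between the subsets. *Dll4* took 2.01%, 0.0471% and 1.24% of the summed ligand level (CPM per kb of exon) in the DsRed- libraries of A, B and C, against 20.6%, 24.8% and 54.6% in the DsRed+ libraries. It was the least abundant ligand in each DsRed- library and the most abundant in a single DsRed+ library, that of C. *Dll1* took 37.5%, 39.5% and 47.2% in DsRed- cTEC, against 31.2%, 22.6% and 16.9% in DsRed+ cTEC, so that the libraries did not overlap. *Jag2* took 44.4%, 41.6% and 39.7% in DsRed- cTEC, against 38.0%, 37.7% and 21.4% in DsRed+ cTEC, again without overlap. *Jag1* took 15.6 ± 3.53% in DsRed- cTEC and 10.7 ± 3.98% in DsRed+ cTEC (SD, n = 3 each), and its subsets overlapped. Shares of a sum are not independent, so that a lower share of *Dll4* raises those of the rest. The summed ligand level itself overlapped, at 35.5, 50.4 and 51.5 CPM per kb in DsRed- cTEC, against 60.2, 43.0 and 61.7 CPM per kb in DsRed+ cTEC.

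**Figure D3:**
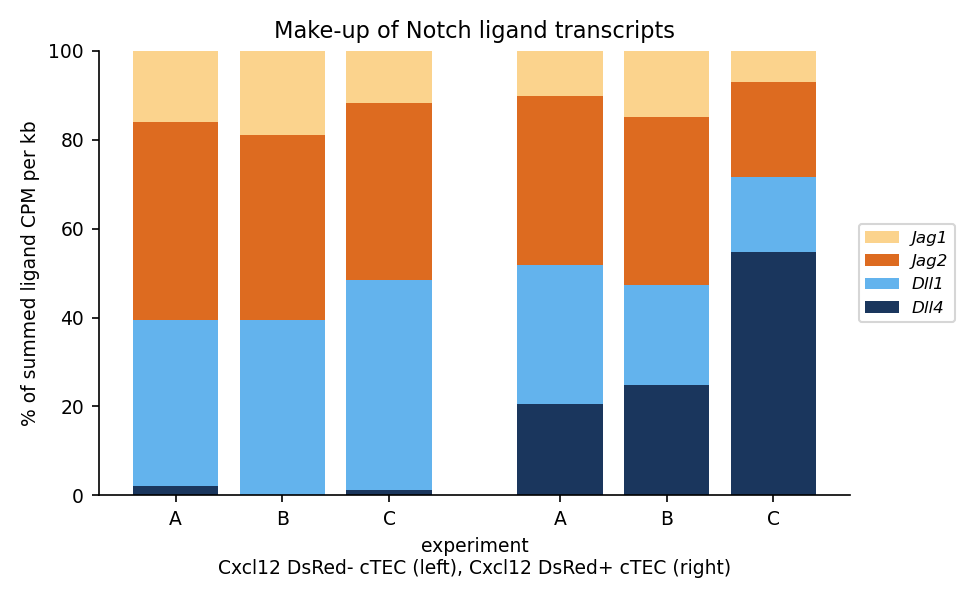
Share of each of the 4 ligands in the summed ligand level, in percent of CPM per kb of exon, in each library, with DsRed- cTEC on the left and DsRed+ cTEC on the right. *Dll4* takes at most 2.01% of a bar on the left and at least 20.6% on the right.

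Fitted differences were smaller for the receptors than for *Dll4*, and the subsets overlapped for all 3. *Notch1* (ENSMUSG00000026923; chr2:26457903-26516663, minus strand), whose product receives the DLL4 signal on thymocyte progenitors, stood at 104, 109.4 and 77.0 CPM in the DsRed- libraries, against 68.9, 51.9 and 99.8 CPM in the DsRed+ libraries. It was higher in DsRed- cTEC in A and B and lower in C, the subsets overlapped, and the log2 fold change was 0.40 (interval −0.30 to 1.09, edgeR adjusted p = 0.717). *Notch2* (ENSMUSG00000027878; chr3:98013527-98150361, plus strand), the receptor that mouse marginal zone B cells need, stood at 84.98, 71.9 and 88.9 CPM in DsRed- cTEC, against 84.3, 59.2 and 30.4 CPM in DsRed+ cTEC. It was the single member that was higher in DsRed- cTEC in all 3 experiments, as were 17.5% of all genes tested, but the levels in A were close and the subsets overlapped (log2 fold change 0.50, interval −0.38 to 1.38, edgeR adjusted p = 0.721). *Notch3* (ENSMUSG00000038146; chr17:32120820-32166852, minus strand), a receptor of vascular smooth muscle and pericytes that thymocytes also express, stood at 13.8, 15.3 and 27.0 CPM in DsRed- cTEC, against 20.4, 22.5 and 81.9 CPM in DsRed+ cTEC. It was lower in DsRed- cTEC in each experiment, and the DsRed+ library of C stood well above the other 5. For *Notch3* the log2 fold change was −1.15 (standard error 0.62, interval −2.62 to 0.32, edgeR adjusted p = 0.566), and −0.23 without that library. The summed receptor level was 16.9, 16.2 and 17.0 CPM per kb in DsRed- cTEC, against 15.2, 11.9 and 19.9 CPM per kb in DsRed+ cTEC, with the DsRed- libraries inside the range of the DsRed+ libraries. *Notch3* made up 13.8 ± 5.15% of this sum in DsRed- cTEC and 30.2 ± 18.1% in DsRed+ cTEC (SD, n = 3 each), with overlap. Exonic bases are shared with opposite-strand genes in *Notch1* (1068 bases with *0610009E02Rik*, at most 45 counts a library) and in *Notch3* (488 bases with *Gm17276*, at most 56 counts a library).

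Of the HES and HEY family genes, *Hey1* (ENSMUSG00000040289, chr3:8663359-8667256, minus strand), a HEY family target of Notch signalling, stood at 21.5, 62.0 and 59.2 CPM in the DsRed- libraries, against 124, 142 and 135 CPM in the DsRed+ libraries. The DsRed+ libraries lay close together and above every DsRed- library, and that of A was the lowest of the DsRed- libraries. The means were 47.6 ± 22.6 CPM in DsRed- cTEC and 133.9 ± 9.05 CPM in DsRed+ cTEC (SD, n = 3 each), 2.81-fold higher in DsRed+ cTEC. The log2 fold change was −1.49 (standard error 0.40, interval −2.44 to −0.54), with an adjusted p of 0.166 in edgeR's quasi-likelihood test, 0.0216 in its likelihood ratio test and 0.0118 in DESeq2. The adjusted p was 0.188 in the quasi-likelihood test with the replicate block and 0.217 with limma voom. The two-sided exact permutation test gave p = 0.1 over the 6 libraries and p = 0.25 within the experiments, in each case the smallest possible. Within the experiments *Hey1* was 5.77 times as high in DsRed+ as in DsRed- cTEC in A (95% counting interval 5.39 to 6.19), 2.29 times in B (2.18 to 2.41) and 2.29 times in C (2.18 to 2.40).

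*Hes6* (ENSMUSG00000067071; chr1:91411483-91414038, minus strand), a family member known in the mouse nervous system to act against HES1 and grouped here by family, stood at 73.0, 122.5 and 52.9 CPM in the DsRed- libraries, against 256, 213 and 118 CPM in the DsRed+ libraries. Each DsRed- library was below its partner, but the DsRed- library of B was slightly above the DsRed+ library of C, so that the subsets overlapped. The means were 82.8 ± 35.8 CPM in DsRed- cTEC and 195 ± 70.5 CPM in DsRed+ cTEC (SD, n = 3 each). This gave a log2 fold change of −1.24 (standard error 0.40, interval −2.20 to −0.28), with an adjusted p of 0.271 in edgeR's quasi-likelihood test, 0.0924 in its likelihood ratio test, 0.0564 in DESeq2 and 0.00738 in the likelihood ratio test with the replicate block. With that block the quasi-likelihood test gave an adjusted p of 0.179, and limma voom without it gave 0.311. *Hes1* (ENSMUSG00000022528; chr16:30064384-30067796, plus strand), the best known HES target of Notch signalling, stood at 9.61, 7.54 and 7.99 CPM in DsRed- cTEC, against 7.37, 10.8 and 24.9 CPM in DsRed+ cTEC. The DsRed- libraries were alike and lay within the range of the DsRed+ libraries, among which that of C was the highest. For *Hes1* the log2 fold change was −0.78 (interval −2.18 to 0.62, edgeR adjusted p = 0.727), and −0.15 without the DsRed+ library of C. In all, *Dll4*, *Notch3*, *Hes6* and *Hey1*, 4 of the 10 genes, were lower in DsRed- cTEC in all 3 experiments, as were 17.5% of all genes tested, and 5 were mixed in direction. The summed level of the 3 HES and HEY family genes was 51.7, 90.4 and 51.3 CPM per kb in DsRed- cTEC, against 183, 166.5 and 119 CPM per kb in DsRed+ cTEC. The libraries did not overlap in this sum, in which *Hes6* had the largest share in each library.

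Ordered by level per kb of exon, *Hes6* was the most abundant of the 10 genes in both subsets, at 45.8 ± 19.8 CPM per kb in DsRed- cTEC and 108 ± 39.0 CPM per kb in DsRed+ cTEC (SD, n = 3 each). In DsRed- cTEC it was followed by *Dll1* (19.2 ± 5.53), *Jag2* (19.1 ± 2.86), *Hey1* (14.6 ± 6.92), *Notch2* (7.60 ± 0.827), *Jag1* (7.10 ± 2.08), *Notch1* (6.81 ± 1.23), *Hes1* (4.12 ± 0.532), *Notch3* (2.31 ± 0.898) and *Dll4* (0.459 ± 0.378 CPM per kb). The neighbours from *Dll1* to *Notch1* overlapped between libraries, whereas *Hes6* and *Dll1*, *Notch1* and *Hes1*, *Hes1* and *Notch3*, and *Notch3* and *Dll4* did not. In DsRed+ cTEC *Hes6* was followed by *Hey1* (41.0 ± 2.77), *Dll4* (18.9 ± 12.9), *Jag2* (17.4 ± 4.95), *Dll1* (12.98 ± 5.06), *Hes1* (7.05 ± 4.58), *Jag1* (5.62 ± 1.12), *Notch2* (5.38 ± 2.504), *Notch1* (5.17 ± 1.71) and *Notch3* (5.14 ± 4.31 CPM per kb). Here only *Hes6* and *Hey1*, and *Hey1* and *Dll4*, were separate, and the ranges of all further neighbours overlapped. *Dll4* thus held the last place in DsRed- cTEC and the third in DsRed+ cTEC, where it did not differ from *Jag2* or *Dll1* beyond the spread.

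The rest of the pathway was described by a list of 64 further genes, of which 55 were tested. None of them (0) passed an adjusted p of 0.05 in edgeR's quasi-likelihood test, where 0.623% of all genes tested passed. An unadjusted p under 0.05 in that test was found for 4 (among them *Notch4*, *Ep300* and *Tle4*), beside 11.8% of all genes tested. In edgeR's likelihood ratio test, in that test with the replicate block and in DESeq2, 1 passed. The shares over all genes tested were 5.65%, 6.81% and 6.94%. Log2 fold changes were above 0 for 31 genes and below 0 for 24, with a median of 0.09, beside 0.02 over all genes tested. All DsRed- libraries were above all DsRed+ libraries for 3 genes (among them *Spen* and *Tle4*), beside 9.73% of all genes tested. They were below them for 2 (*Notch4* and *Dtx4*), beside 9.32% of all genes tested. The 9 that the filter on low counts left out were *Dll3*, *Dlk1*, *Dner*, *Hes2*, *Hes3*, *Hes5*, *Hes7*, *Neurl1a* and *Lfng*. Not all of them were low in every library. *Neurl1a*, of the ligand endocytosis list, had 286, 363 and 5 counts in the DsRed- libraries, against 5, 0 and 1 in the DsRed+ libraries. *Dlk1* went the other way, with 2, 0 and 0 counts against 16, 7 and 143. These differences were not tested.

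Among the other ligands and receptors, *Notch4*, the receptor gene known for its expression in endothelium, stood at 0.0693, 0.0609 and 0.762 CPM in the DsRed- libraries, from 3, 2 and 31 counts, against 1.53, 5.96 and 19.5 CPM in the DsRed+ libraries, from 81, 286 and 757 counts. The libraries did not overlap, with the DsRed+ library of C the highest (log2 fold change −4.90, standard error 1.56, adjusted p = 0.257 in edgeR's quasi-likelihood test and 0.0319 in its likelihood ratio test). *Dlk2*, a Delta-like homologue and the only other ligand gene tested of 4 listed, ranged from 20.1 to 143 CPM in DsRed- cTEC and from 51.9 to 82.5 CPM in DsRed+ cTEC. Of the further Hes and Hey genes, 2 of 6 were tested, and both overlapped: *Hey2* averaged 18.6 ± 7.28 CPM in DsRed- cTEC and 11.4 ± 5.37 CPM in DsRed+ cTEC (SD, n = 3 each), and *Heyl* was at 30.4, 0.213 and 48.5 CPM in DsRed- cTEC, against 23.0, 31.6 and 51.3 CPM in DsRed+ cTEC. Of 6 other targets, *Nrarp*, a feedback inhibitor of Notch signalling, was at 0.0693, 2.40 and 0.689 CPM in DsRed- cTEC, against 2.40, 4.15 and 10.4 CPM in DsRed+ cTEC (log2 fold change −2.42, edgeR adjusted p = 0.582), with the DsRed- library of B and the DsRed+ library of A at about the same level. *Il2ra*, the interleukin 2 receptor alpha chain gene, overlapped too (log2 fold change −0.89, edgeR adjusted p = 0.874).

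Fitted differences of the named genes that send and process the signal were all smaller than that of *Dll4*. Of the 10 cleavage genes, 7 had a log2 fold change above 0 and 3 below, among them *Aph1b*, which encodes a gamma-secretase subunit (−0.86, edgeR adjusted p = 0.653). *Rbpj*, the DNA-binding partner of the Notch intracellular domain, stood at 27.6, 52.7 and 37.6 CPM in DsRed- cTEC, against 19.5, 29.7 and 24.2 CPM in DsRed+ cTEC (log2 fold change 0.68 ± 0.34 SE, with an edgeR adjusted p of 0.523). It was higher in DsRed- cTEC within each experiment, with overlap between experiments, and the coactivator gene *Ep300* averaged 52.5 ± 18.4 CPM in DsRed- cTEC and 29.2 ± 3.39 CPM in DsRed+ cTEC (edgeR adjusted p = 0.388). Of the 9 nuclear complex genes 6 had a log2 fold change above 0, as had 7 of 11 corepressor genes, where *Tle4* had 0.85 (edgeR adjusted p = 0.416) and *Spen* 0.93 (edgeR adjusted p = 0.622). *Mib1*, the E3 ligase that drives ligand endocytosis in the cell that sends the signal, averaged 26.0 ± 2.703 CPM in DsRed- cTEC and 26.5 ± 2.53 CPM in DsRed+ cTEC (SD, n = 3 each). Its log2 fold change was −0.03 (standard error 0.27, edgeR adjusted p = 0.987), and that of the related *Mib2* was 0.02. The 4 tested genes of receptor glycosylation all had log2 fold changes below 0, with *Poglut1*, an O-glucosyltransferase, at −0.29 (edgeR adjusted p = 0.655) and the Fringe gene *Mfng* spread from 0.0738 to 22.2 CPM in DsRed- cTEC and from 7.17 to 50.9 CPM in DsRed+ cTEC. Of the 8 genes of receptor turnover 5 were above 0, including the E3 ligase genes *Dtx2* (0.92, edgeR adjusted p = 0.444) and *Itch* (0.62, edgeR adjusted p = 0.624).

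*Dll4* is a ligand of endothelial cells as well as of cTEC, and endothelial markers moved with it. Their sum was 145, 94.3 and 71.1 CPM in the DsRed- libraries, against 965.7, 953.8 and 7181 CPM in the DsRed+ libraries. Of the 18 markers 16 were lower in every DsRed- library, beside 9.32% of all genes tested, and none was at 0 throughout a subset. By edgeR's quasi-likelihood test 1 fell, where 0.623% of all genes tested passed in either direction. The defining marker *Cdh5*, which encodes VE-cadherin, stood at 1.11, 0.365 and 0.271 CPM in DsRed- cTEC, against 13.8, 25.8 and 171 CPM in DsRed+ cTEC. Per 100 CPM of endothelial markers, *Dll4* stood at 1.89, 0.0968 and 3.46 CPM in DsRed- cTEC, against 4.94, 4.30 and 1.81 CPM in DsRed+ cTEC. The subsets overlapped in this ratio, with the DsRed+ library of C below the DsRed- libraries of A and C. The ratio depends on which markers are summed, and not all differed as much as *Cdh5*. *Esam* stood at 23.7, 20.4 and 23.4 CPM in DsRed- cTEC, against 136, 157 and 997 CPM in DsRed+ cTEC. The DsRed+ library of C had 7.44 and 7.53 times the endothelial sum of those of A and B, and 2.72 and 3.17 times their *Dll4*. Without that library the log2 fold change of *Dll4* was −4.67, with endothelial sums of 965.7 and 953.8 CPM in the DsRed+ libraries that remained. The part of endothelial cells in the *Dll4* difference was not tested.

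The same DsRed+ library was the highest for *Notch3* and *Hes1*. Relative to the DsRed+ libraries of A and B, *Notch3* was 4.01 and 3.64 times as high in it, *Hes1* 3.38 and 2.31 times and *Notch4* 12.7 and 3.27 times. By contrast, *Hey1* was 1.09 and 0.952 times as high, *Hes6* 0.461 and 0.554 times and *Notch2* 0.36 and 0.512 times. The sum of 10 pericyte and smooth muscle markers, cells known to express *Notch3*, was 1053, 1019 and 775 CPM in DsRed- cTEC, against 1124, 1020 and 1803 CPM in DsRed+ cTEC. In that sum 2 of the 10 genes were lower in every DsRed- library, beside 9.32% of all genes tested. Per 100 CPM of that sum *Notch3* stood at 1.31, 1.499 and 3.49 CPM in DsRed- cTEC, against 1.81, 2.20 and 4.54 CPM in DsRed+ cTEC. This ratio was lower in DsRed- cTEC in each experiment, with overlap between experiments, but it depends on which markers are summed. *Acta2* (means 315 and 292 CPM in DsRed- and DsRed+ cTEC) and *Tagln* (457 and 411 CPM) were its largest terms in most libraries. In the DsRed+ library of C the largest was *Rgs5*, at 592 CPM, against 56.5 and 123 CPM in those of A and B. The part of these cells in the level of *Notch3* was not tested. Thymocytes express *Notch1* and *Notch3*. Their markers (12 genes) summed to 50.8 to 103 CPM in DsRed- cTEC, against 44.5 to 338 CPM in DsRed+ cTEC. *Ptcra* was at 0 in every library but the DsRed+ library of B, which had 26 counts. The part of thymocytes in the receptor levels was not tested.

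**Figure D4:**
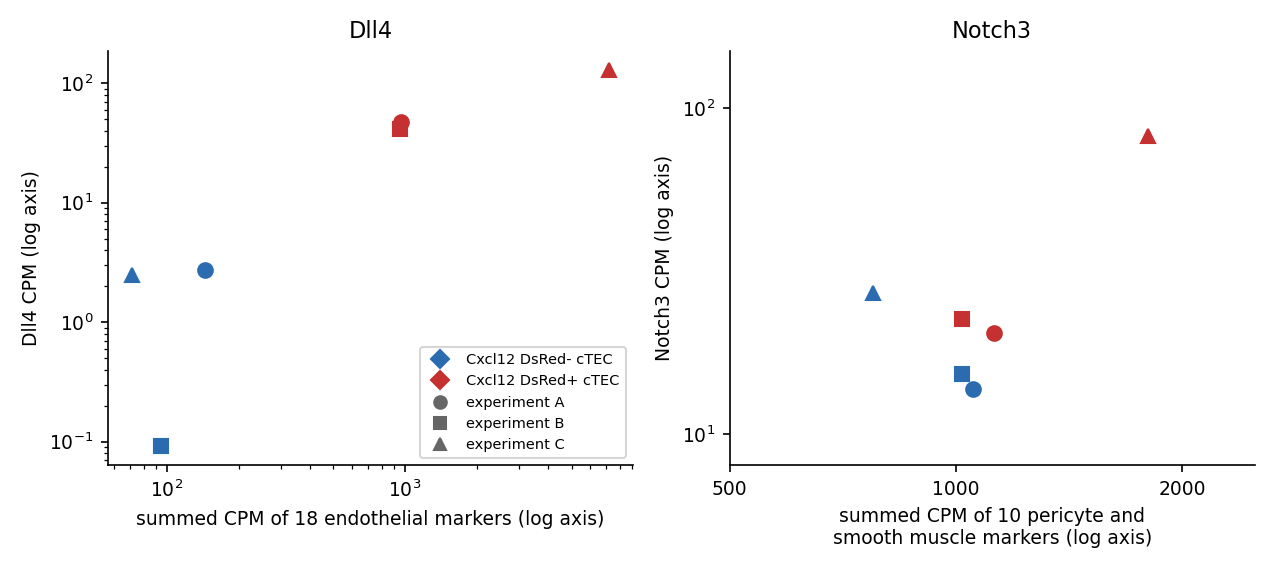
*Dll4* level against the summed level of 18 endothelial markers (left) and *Notch3* level against that of 10 pericyte and smooth muscle markers (right), in CPM on log axes, for the DsRed- libraries (blue) and the DsRed+ libraries (red). On the left the DsRed- libraries lie at or below 145 CPM of endothelial markers and the DsRed+ libraries at or above 953.8 CPM, and on the right the DsRed+ library of C stands apart at 1803 and 81.9 CPM.

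Genes with the most similar pattern over the 6 libraries were found by the root mean square (RMS) difference of log2 CPM, each gene centred on its own mean. The measure is a description over 6 libraries that differ in depth and in their markers of other cells. The part of these differences in the pattern of any gene was not tested. For *Dll4*, whose own RMS distance from its mean was 3.36, the nearest were *Nos3* (0.67), which encodes endothelial nitric oxide synthase, *Cd36* (0.88), a fatty acid receptor, and *Ushbp1* (0.89). *Nos3* stood at 2.10, 0.0304 and 1.55 CPM in DsRed- cTEC, against 10.8, 10.01 and 66.7 CPM in DsRed+ cTEC, low in the same DsRed- library and high in the same DsRed+ library as *Dll4*. For *Notch3* (own RMS 0.84) they were *Selenop* (0.17), a plasma selenium carrier, *Fbln2* (0.20), a matrix protein gene, and *Cd81* (0.23), a tetraspanin gene. For *Hey1* (own RMS 0.96) they were *Mad2l1* (0.14), a spindle checkpoint gene, *Tdrp* (0.19) and *Castor1* (0.21), an arginine sensor gene. *Hes6* (own RMS 0.79), added after its values were seen, was nearest to *Foxn1* (0.13), which stood at 83.0, 135 and 53.8 CPM in DsRed- cTEC, against 291, 276 and 156 CPM in DsRed+ cTEC. As for *Hes6*, the DsRed- library of C was the lowest and the DsRed+ library of C the lowest of its subset (log2 fold change of *Foxn1* −1.41, edgeR adjusted p = 0.189).

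**Figure D5:**
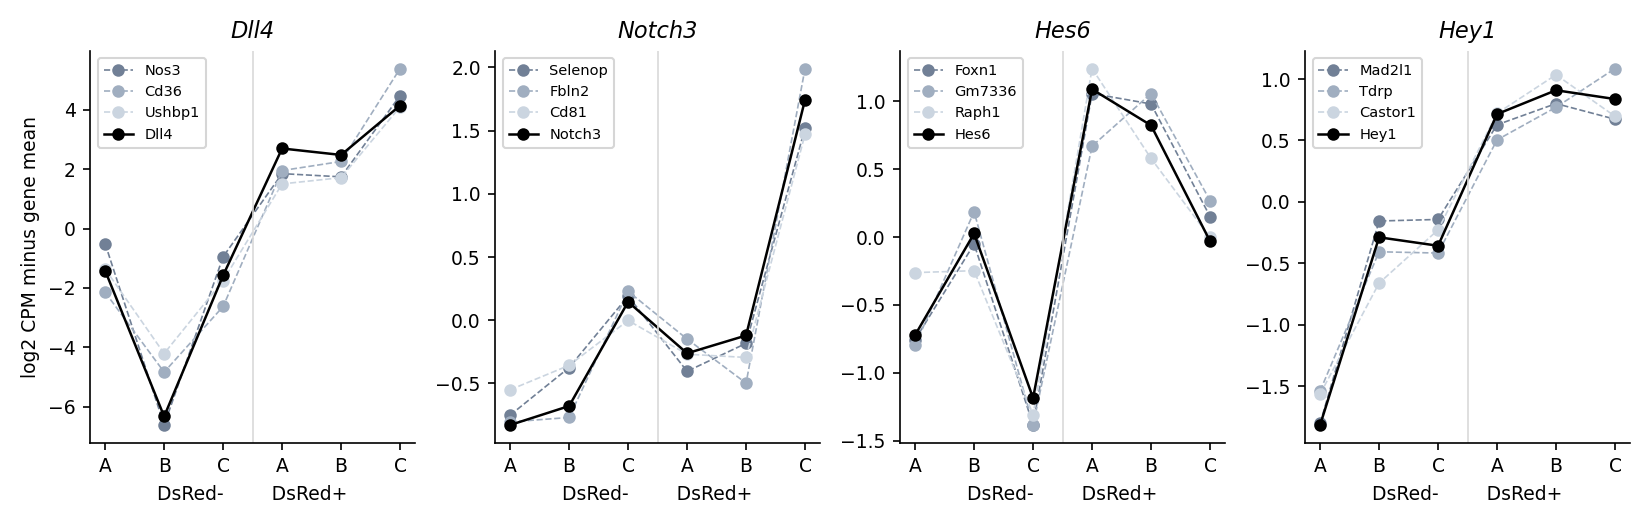
Log2 CPM minus the gene's own mean in each library for *Dll4*, *Notch3*, *Hes6* and *Hey1* (black) and the 3 genes nearest to each (grey, dashed), with DsRed- cTEC to the left of DsRed+ cTEC and experiments A, B and C in order. *Foxn1* follows *Hes6* with an RMS difference of 0.13, while *Nos3* follows *Dll4* with 0.67.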

How the data were processed

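RNA was sequenced from 6 libraries, 1 of each subset in each of experiments A, B and C. The authors used polyadenylated RNA, the SMARTer Ultra Low Input kit and an Illumina NovaSeq, processed the reads with Trimmomatic 0.36, STAR 2.7.3a (genome mm10) and HTSeq, and deposited whole-number counts per gene, not normalized. Not given in the sources used here are the annotation release and whether strand was used. There were 39277 entries, with 39179 genes, 92 spike-in names at 0 counts, 5 HTSeq summaries and the DsRed entry, and the last 3 kinds stayed out of library sizes and tests. Reads in no gene were 5.87% to 9.35% of the gene total. Symbols, coordinates and exon lengths were matched to gene IDs by a GENCODE annotation of GRCm38 (mm10), which held 37693 of the IDs. Promoter windows came from RefSeq.

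The tests were run in R 4.3.3 with edgeR 4.0.16 (TMM, filterByExpr with a minimum count of 10, quasi-likelihood test, Benjamini-Hochberg adjustment at 0.05 over 15576 genes), for DsRed- over DsRed+ cTEC. The log2 fold change is the fitted value, its standard error is its size divided by the root of F, and its interval covers 95%. Nearest patterns used edgeR's log2 CPM with a prior count of 2. The alternatives were the likelihood ratio test, the experiment as a replicate block, voom in limma 3.58.1, DESeq2 1.42.0, scaling by RLE or by library totals, dropping the filter or asking for a mean of 1 CPM, and omitting every library and every experiment in turn. Counting intervals cover counting error only, since amplified reads are not independent molecules. The test was tested on simulated data.

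The labels name the experiment of each library, so libraries of the same letter were taken as pairs. Their deviations from the subset means correlated across genes at 0.0106, 0.0778 and 0.0716, against −0.0948 to 0.00374 for unpaired libraries. The 10 genes, the pathway and marker lists and the tests were chosen with earlier results of these data known. Named were all 10 genes, of each other pathway list the genes that passed and the 2 with the smallest p, and the 3 nearest patterns of the ligand, the receptor and the target with the smallest p. A single gene that this rule named is not reported here. Marker sums not given with the results were 3468 to 4527 CPM in DsRed- cTEC and 1097 to 5046 CPM in DsRed+ cTEC for mTEC, 43.5 to 163 CPM in DsRed- cTEC and 14.8 to 22.4 CPM in DsRed+ cTEC for neuroendocrine cells, and 1254 to 3907 CPM in DsRed- cTEC and 60.5 to 82.6 CPM in DsRed+ cTEC for secretory and ciliated cells.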

Additional observations from a re-analysis of the deposited data

How the results depend on the processing

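Of 180 values of the members' log2 fold changes under the alternatives, 171 kept their direction and their side of the threshold and 7 newly passed it. The other 2 were of *Jag2*, at −0.07 without the DsRed+ library of C and −0.12 without experiment C, with a range of −0.12 to 0.46 over the libraries and experiments left out. Of the 10 members, 0 passed in edgeR's quasi-likelihood test and stayed at 0 without any library or experiment, with 2 in its likelihood ratio test, 3 in that test with the replicate block and 2 in DESeq2. Over all genes, the 97 that passed became 880 in the likelihood ratio test, 1060 with the replicate block in that test, 1081 in DESeq2, 4 in limma voom and 168 without a filter. They became 73 with the replicate block in the quasi-likelihood test, 40 of them among the 97. Leaving out libraries or experiments gave 0 to 139, with 1 without the DsRed+ library of C and 35 without experiment C, from fewer libraries. Of the other pathway genes, 1 passed in each of the likelihood ratio test with and without the replicate block and DESeq2. The 2 members whose subsets did not overlap became 2 to 6 with fewer libraries. Subsets of fewer libraries overlap less often, and the share over all genes is not given for them, so this count is not a result about the members. Counts limit precision for *Dll4* in DsRed- cTEC (3 counts in B). Its mean share of the ligand level in DsRed+ cTEC, 33.3%, was 39.7% without experiment A and 22.7% without experiment C.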
